A study of Mus musculus with 2 samples.

Results

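Lhcgr and Fshr encode the receptors for luteinizing hormone and follicle-stimulating hormone and lie in tandem on mouse chromosome 17. The CpG methylation of this locus was measured by reduced representation bisulfite sequencing (RRBS) in liver DNA of Uhrf1 YP187/188AA knock-in (KI) and wild-type (WT) mice. Members were all CpG cytosines on chromosome 17 between 88 and 91 Mb (mm9) that were read at least 5 times in both libraries. There were 2818 such cytosines at 1652 CpGs, out of 2654195 in the genome. The promoters (within 1 kb of the 5′ end), the gene bodies and the space between the genes were described apart. The locus was chosen with the KI and WT values known, and was selected for the loss of methylation at the Lhcgr promoter in KI. Its differences between KI and WT are therefore given as a description, and the calls by tests run over the whole genome are given as counts from which nothing is read.

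The KI library was made from pooled liver DNA of 3 male mice aged 3 months that were homozygous for the YP187/188AA substitution in Uhrf1, and the WT library from 3 WT males of the same age. Both are labelled C57BL/6. The KI allele was introduced by homologous recombination in ES cells and crossed into C57BL/6, and every cell of the animal carries it. The genotype label of the KI library reads "knock out", whereas its title and the study describe a knock-in. With 1 library per genotype there is no measure of the spread between animals, and every test on reads compares these libraries, not the genotypes.

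UHRF1 recruits the maintenance methyltransferase DNMT1 to newly replicated DNA. Its SRA domain binds hemi-methylated CpGs and its tandem Tudor domain binds histone H3 methylated at lysine 9, and the substitution abolishes H3K9me2/3 binding. LHCGR and FSHR are G protein-coupled receptors with a large extracellular hormone-binding domain, and both signal mainly through Gs, adenylyl cyclase and cyclic AMP. LHCGR acts chiefly in Leydig, theca and luteal cells, and FSHR in Sertoli and granulosa cells. Neither is a characteristic gene of hepatocytes. RNA was not part of these data, so methylation is the only readout of the receptor genes here.

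The files list 6452685 cytosines in KI and 7231934 in WT, with a summed coverage of 173109895 reads in KI and 192144002 reads in WT. The shared cytosines had a median of 37 reads in each library and mean methylation levels of 42.6% in KI and 45.6% in WT. Within 88 to 91 Mb the median was 36 reads in each library. The ratio of KI to WT coverage was 0.895 over these 3 Mb, against 0.901 over the genome, and lay between 0.748 and 0.908 in the parts of the locus described here. RRBS reads DNA from MspI sites (CCGG) inwards, so neighbouring CpGs of an MspI fragment are read by the same molecules. At each CCGG end, the cytosine that is filled in during library preparation reads as unmethylated, and levels are therefore also given for CpGs outside CCGG. Intervals are at 95%. Those of single cytosines are exact (Clopper-Pearson), and those of means treat the cytosines of 1 strand in a cluster as read by the same reads. They cover counting error only, since PCR copies were not marked by molecular identifiers.

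The measured part of the Lhcgr promoter was a single MspI fragment in the coding part of exon 1. It was less methylated in KI than in WT at every cytosine outside CCGG. Lhcgr (ENSMUSG00000024107.6) spans chr17:89140889-89191316 on the minus strand and has 11 exons, of which exon 1 is chr17:89191139-89191316. The shared CpGs lie 21 to 130 bases downstream of the start site. The fragment is shown because every Lhcgr promoter value rests on it, 5′ to 3′ on the coding strand (chr17:89191185-89191296, minus strand), with the CpGs in capitals.
Lhcgr exon 1: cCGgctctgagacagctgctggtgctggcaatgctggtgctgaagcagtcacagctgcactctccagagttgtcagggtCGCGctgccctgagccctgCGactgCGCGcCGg

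The 7 CpGs of this fragment gave 14 cytosines, which averaged 21.7% methylation in KI and 52.5% in WT. The difference was -30.7 points (counting interval -55.2 to -6.29). Outside CCGG, 10 cytosines averaged 25.2% in KI and 62.7% in WT, a difference of -37.5 points (-63.6 to -11.3). All 14 cytosines were lower in KI, the filled-in ends among them, and all 5 CpGs outside CCGG were lower on both strands. The promoter had lost 58.6% of its WT level (59.8% outside CCGG), while the mean over all shared cytosines of the genome had lost 6.55% (6.82% outside CCGG).

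The reads behind these means were few and nearly uniform along the fragment in KI. On the coding strand, 3 of 16 KI reads were methylated at each of the 5 CpGs outside CCGG (18.8%, interval 4.05% to 45.6%), against 5 to 7 of 9 WT reads (55.6% to 77.8%). On the template strand, 3 or 4 of 12 KI reads were methylated at these CpGs (33.3% where 4 were), against 8 to 10 of 13 or 14 WT reads (57.1% to 71.4%). The intervals of KI and WT overlapped at every cytosine. At the filled-in end cytosines, 0 of 12 and 0 of 16 KI reads were methylated, against 2 of 14 and 1 of 11 WT reads. Filled-in cytosines read as unmethylated through library preparation, so these counts are not a measure of genomic methylation. The widest gap was at the CpG 101 bases downstream of the start site, where 3 of 16 KI reads and 7 of 9 WT reads were methylated on the coding strand. Which reads carried methylation at several CpGs cannot be seen in values per cytosine, so the precision of the whole promoter is that of about 12 and 16 KI reads and 14 and 9 WT reads.

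**Figure D1:**
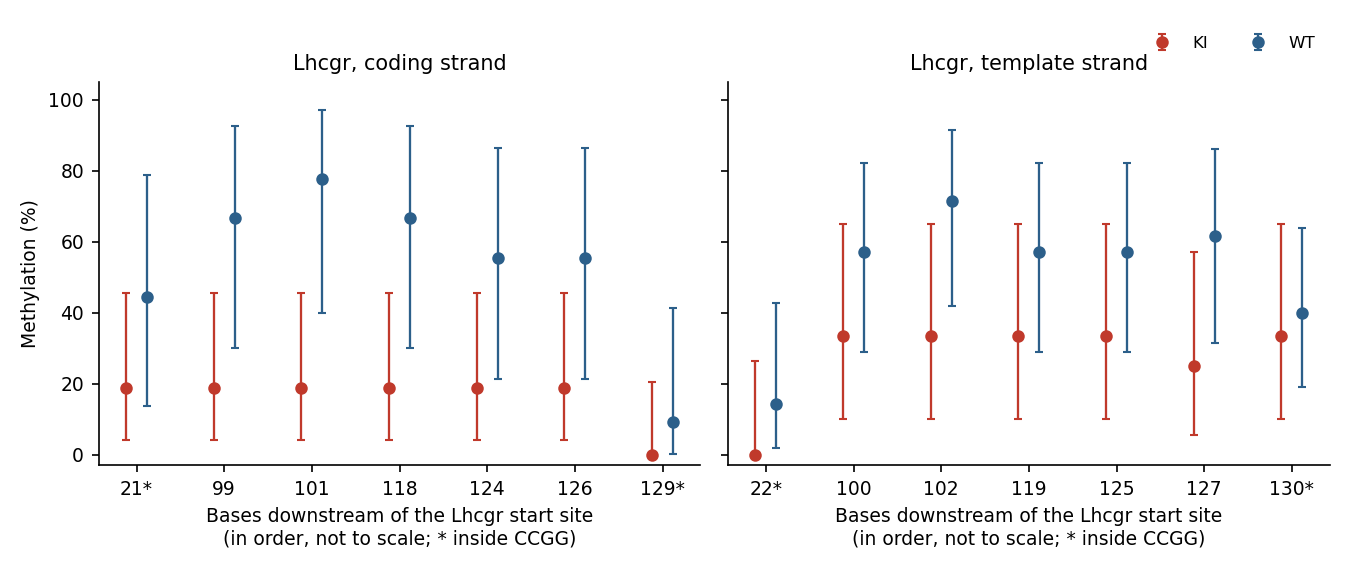
Methylation (%) of the 14 cytosines of the Lhcgr promoter on the coding strand (left) and the template strand (right), in order of their distance in bases from the start site, with KI in red, WT in blue and exact 95% intervals as bars. KI lies below WT at every cytosine, the filled-in end cytosines (0% in KI) included. Levels are between 0% and 33.3% in KI against 9.09% to 77.8% in WT, and the bars of the libraries overlap throughout.

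The Fshr promoter was measured at higher depth and was also less methylated in KI, by a smaller amount and unevenly along the fragment. Fshr (ENSMUSG00000032937.3) spans chr17:89384292-89600015 on the minus strand and has 10 exons. Its 15 shared cytosines at 8 CpGs lie on a single MspI fragment from 22 bases upstream to 199 bases downstream of the start site, in exon 1 except for the upstream CCGG end. Coverage was 67 to 73 reads in KI and 66 to 101 reads in WT. The coding part of the fragment is shown because it holds the CpG with the largest difference, the first of its capitals (chr17:89599815-89599952, minus strand, CpGs in capitals).
Fshr exon 1, coding part: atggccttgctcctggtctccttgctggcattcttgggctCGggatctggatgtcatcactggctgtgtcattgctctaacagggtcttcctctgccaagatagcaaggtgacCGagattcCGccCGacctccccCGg

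The 15 cytosines averaged 67.4% in KI and 78.8% in WT, a difference of -11.4 points (-18.4 to -4.47). Outside CCGG, 11 cytosines averaged 75.4% in KI and 88.7% in WT, a difference of -13.4 points (-21.2 to -5.62). Of the 15 cytosines, 12 were lower in KI, 2 were higher and 1 was equal. The Fshr promoter had lost 14.5% of its WT level, so most of its methylation was still present in KI.

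The first capital CpG of the sequence, 104 bases downstream of the start site on the template strand, was methylated in 15 of 68 KI reads (22.1%, interval 12.9% to 33.8%) and in 48 of 69 WT reads (69.6%, interval 57.3% to 80.1%). Its coding-strand cytosine had 1 KI read and 4 WT reads and was not compared. Other CpGs of the same strand differed less. At 9 bases downstream, 43 of 67 KI reads and 53 of 67 WT reads were methylated. At 21 bases downstream, 60 of 68 KI reads and 55 of 66 WT reads were methylated, and at 185 and 189 bases downstream 66 of 69 KI reads were methylated at both, against 67 and 66 of 69 WT reads. The CpG at 177 bases was methylated in 56 of 69 KI reads and 67 of 69 WT reads. On the coding strand, the CpGs 8 and 20 bases downstream were methylated in 46 and 52 of 72 KI reads, against 88 of 100 and 93 of 101 WT reads. Outside CCGG, the differences of single cytosines ran from -47.5 to 4.90 points at Fshr and from -59.0 to -23.8 points at Lhcgr.

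**Figure D2:**
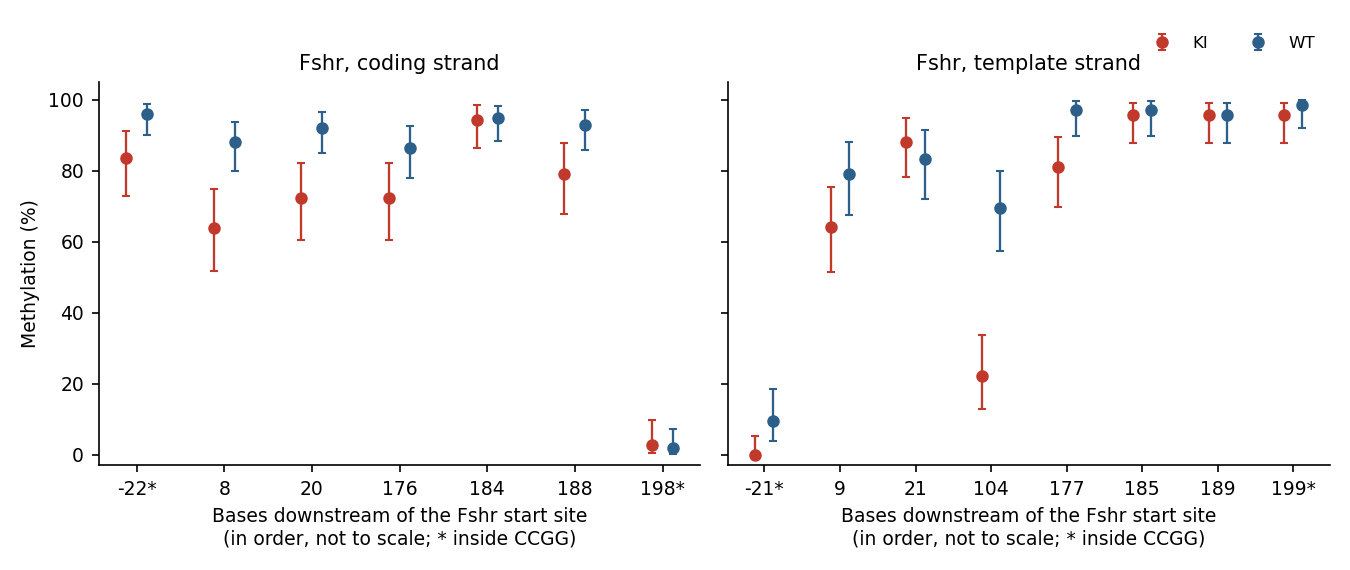
Methylation (%) of the 15 cytosines of the Fshr promoter on the coding strand (left) and the template strand (right), in order of their distance in bases from the start site, with KI in red, WT in blue and exact 95% intervals as bars. The template cytosine 104 bases downstream stands at 22.1% in KI and 69.6% in WT, while those at 185 and 189 bases are above 95% in both libraries.

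The gene bodies were measured only in introns, and both were moderately less methylated in KI. The Lhcgr body (50.4 kb with its promoter) held 27 shared cytosines that averaged 54.8% in KI and 62.1% in WT, a difference of -7.26 points (-11.5 to -3.01). The Fshr body (216 kb with its promoter) held 107, which averaged 67.5% in KI and 74.6% in WT, a difference of -7.10 points (-13.6 to -0.581). Among 11180 gene bodies with at least 20 shared cytosines the median difference was -1.91 points and 5% of them had a difference of -7.80 points or below.

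Within an intronic fragment, neighbouring CpGs differed between KI and WT by unequal amounts. In intron 8 of Lhcgr a deeply read fragment had 8 CpGs, numbered here from its 5′ end, and is shown because it is the best-covered stretch of the gene (chr17:89154660-89154823, minus strand, CpGs in capitals).
Lhcgr intron: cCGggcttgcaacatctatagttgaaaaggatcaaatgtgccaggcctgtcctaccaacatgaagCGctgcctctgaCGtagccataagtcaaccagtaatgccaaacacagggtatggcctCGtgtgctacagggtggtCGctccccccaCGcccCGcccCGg

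The second CpG of this fragment was methylated in 188 of 198 KI reads and 268 of 282 WT reads on the coding strand. The fourth was methylated in 98 of 198 KI reads and 209 of 280 WT reads on the coding strand, and in 116 of 210 KI reads and 210 of 272 WT reads on the template strand. The fifth was methylated in 121 of 192 KI reads and 240 of 281 WT reads on the coding strand, and in 135 of 209 KI reads and 208 of 272 WT reads on the template strand. The third was methylated in 166 of 200 KI reads and 247 of 284 WT reads on the coding strand. Over the 12 cytosines outside CCGG the fragment averaged 74.1% in KI and 84.6% in WT.

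A fragment in intron 1 of Fshr, 46.9 kb downstream of the start site, also held unequal neighbours, and its sequence is shown because its second CpG was read at least 110 times on each strand and called on both (chr17:89553046-89553190, minus strand, CpGs in capitals).
Fshr intron: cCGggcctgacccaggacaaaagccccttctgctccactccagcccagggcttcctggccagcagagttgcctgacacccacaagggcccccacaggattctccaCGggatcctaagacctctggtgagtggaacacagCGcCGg

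The second CpG was methylated in 35 of 139 KI reads and 68 of 110 WT reads on the coding strand, and in 76 of 239 KI reads and 120 of 203 WT reads on the template strand. The third CpG, a short distance away, was methylated in 119 of 137 KI reads and 111 of 115 WT reads on the coding strand. On the template strand it was methylated in 227 of 237 KI reads and 195 of 201 WT reads. In intron 2 of Fshr, 132 of 425 KI reads and 269 of 520 WT reads were methylated at base 89491449, whereas 359 of 423 KI reads and 464 of 518 WT reads were methylated at base 89491480 of the same strand and fragment. Of the 9 Fshr intron fragments with at least 3 cytosines outside CCGG, 8 were lower in KI, with differences of -25.6 to 1.91 points. The fragments starting at bases 89553245 and 89553446 differed by -25.6 and -21.1 points, but they are identical over their 102 bases, and which copy a read came from is uncertain. The fragments that follow each of them are 97.2% identical to each other and differed by 1.91 and -5.04 points.

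Between the genes, 41 shared cytosines in 192 kb averaged 46.9% in KI and 54.8% in WT, a difference of -7.89 points (-13.6 to -2.17). Of these, 27 lay in CCGG. The 14 outside CCGG averaged 64.7% in KI and 83.8% in WT, a difference of -19.1 points (-30.4 to -7.82), and 12 of them were lower in KI. A CpG at base 89230397, 39.1 kb upstream of the Lhcgr start site, was methylated in 42 of 71 KI reads and 67 of 74 WT reads. The only fragment of this space with 3 or more such cytosines started at base 89337614 and averaged 56.7% in KI and 92.5% in WT, from a median of 5.5 KI reads and 10 WT reads.

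In the 835 kb upstream of Fshr, which hold no measured promoter, 312 cytosines averaged 59.8% in KI and 68.6% in WT, a difference of -8.79 points (-11.5 to -6.04). Downstream of Lhcgr, from 88 Mb on, 2168 cytosines averaged 41.4% in KI and 43.9% in WT, a difference of -2.52 points (-4.05 to -0.997). The largest differences of any fragment in the 3 Mb were at 2 fragments upstream of Fshr, and their sequences are shown for comparison with that of Lhcgr (chr17:89636989-89637097 and chr17:89808212-89808398, both as minus strand, CpGs in capitals).
upstream of Fshr, first: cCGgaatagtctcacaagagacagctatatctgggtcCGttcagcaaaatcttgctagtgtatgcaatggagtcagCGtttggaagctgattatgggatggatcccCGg
upstream of Fshr, second: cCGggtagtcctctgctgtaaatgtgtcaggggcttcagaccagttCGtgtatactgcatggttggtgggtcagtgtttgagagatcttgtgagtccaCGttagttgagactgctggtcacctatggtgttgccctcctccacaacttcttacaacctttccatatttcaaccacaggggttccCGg

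The first, 37.0 kb upstream of the Fshr start site, averaged 47.9% in KI and 90.3% in WT over 4 cytosines outside CCGG. The second CpG of that fragment was methylated in 24 of 47 KI reads and 29 of 30 WT reads on the coding strand. The second fragment, 208 kb upstream, averaged 23.1% in KI and 63.0% in WT and was read more deeply. In that deeper fragment the third CpG was methylated in 51 of 161 KI reads and 211 of 270 WT reads on the template strand, and the second in 8 of 89 KI reads and 74 of 154 WT reads on the coding strand. Each holds 4 CpGs, against 7 in the Lhcgr fragment.

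Among 189 fragments of the 3 Mb with at least 3 shared cytosines outside CCGG, 140 were lower in KI (74.1%), where 68.8% of 169334 fragments of the genome were. A difference of more than 25 points downwards was seen at 6 of the 189 (3.17%), against 1.66% in the genome, and 0 differed by as much upwards, against 0.203% in the genome. By decreasing difference the 6 were both fragments upstream of Fshr, Lhcgr exon 1, the fragment between the genes, a fragment 738 kb upstream of Fshr and the first of the identical copies in Fshr intron 1. Of the 29 steps of 100 kb with shared cytosines, 28 were lower in KI. The exception was a step with 2 cytosines, which was 4.17 points higher in KI.

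**Figure D3:**
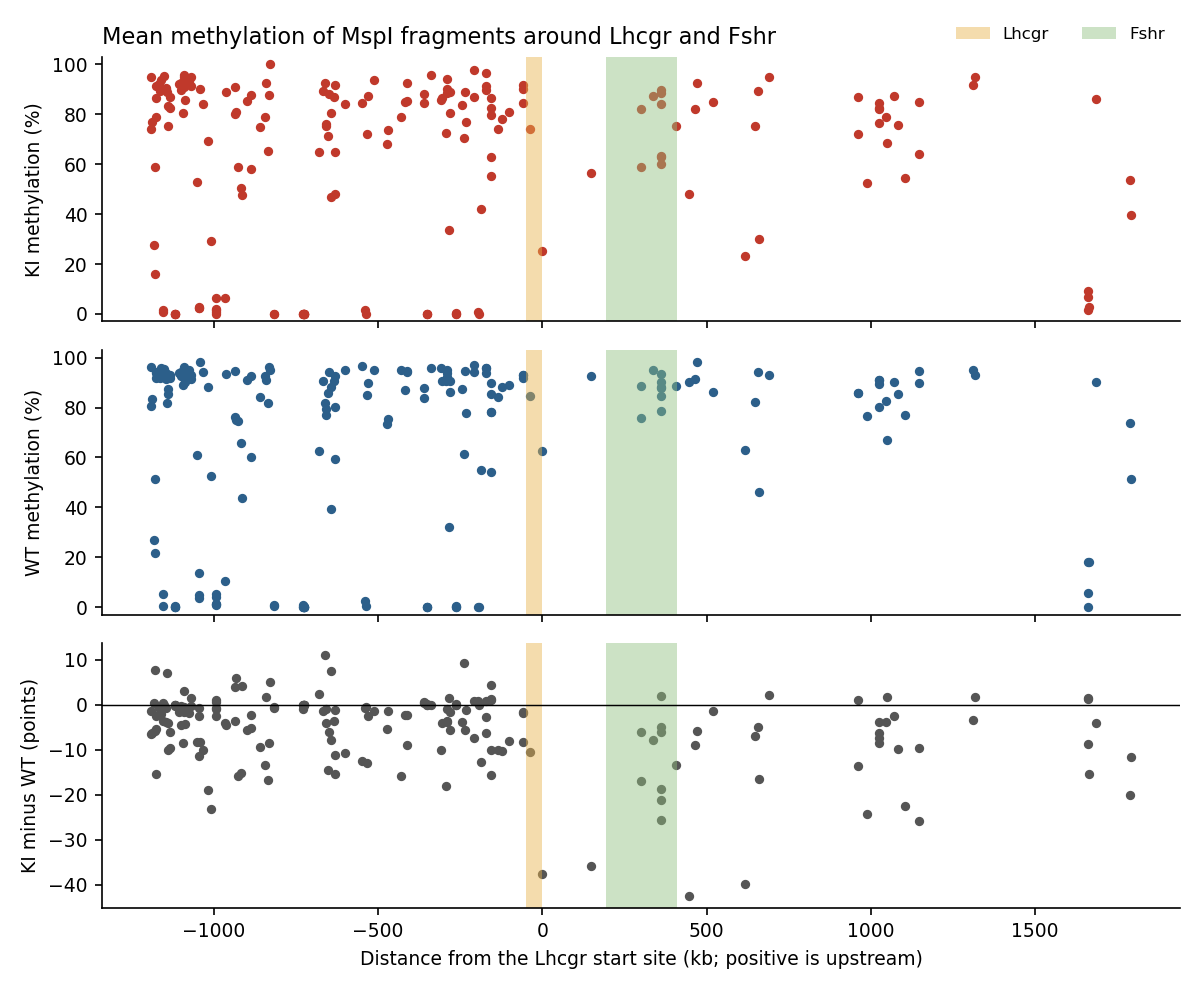
Mean methylation (%) outside CCGG of each of the 189 MspI fragments in KI (top) and WT (middle) and their difference in points (bottom), against the distance from the Lhcgr start site in kb, with Lhcgr and Fshr shaded. Most points of the bottom panel lie at or below 0, and the 6 fragments with differences beyond -25 points all lie at or upstream of the Lhcgr start site.

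**Figure D4:**
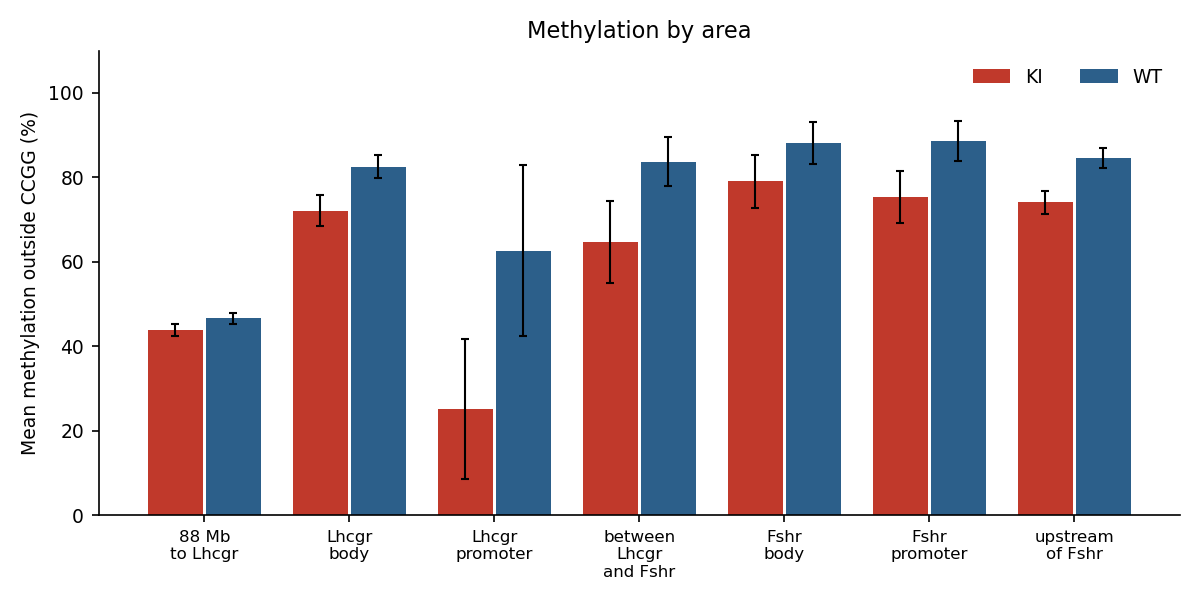
Mean methylation (%) of cytosines outside CCGG in the parts of the locus described here (the last being the 835 kb upstream of Fshr), KI left of WT, with bars for the 95% counting interval of each mean. The Lhcgr promoter stands at 25.2% in KI against 62.7% in WT with the widest intervals, and the Fshr promoter at 75.4% in KI against 88.7% in WT.

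By Fisher's exact test on the reads of each cytosine (two-sided, Benjamini-Hochberg adjusted over all shared cytosines, called at more than 25 points and an adjusted p below 0.05), 45 of the 2818 cytosines were called lower in KI and 0 higher. In the genome 1.09% of the shared cytosines were called lower and 0.0474% higher. The choice of the locus used this contrast, so nothing is read from the count. The 45 cytosines lie at 39 CpGs, of which 6 were called on both strands, and their median levels were 45.9% in KI and 77.6% in WT. None of the 14 Lhcgr promoter cytosines was among them, at 9 to 20 reads each in WT, whereas 1 of the 15 at the Fshr promoter was. Loss to near 0 was not seen at well-covered sites, since 0 of 982 cytosines with at least 20 reads in both libraries and above 70% in WT were below 20% in KI.

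Cytosines outside CCGG were grouped by their WT level, which itself enters the difference. Those of the region under 10% in WT averaged 1.04% in KI and 0.695% in WT (669 cytosines). Over the genome such cytosines averaged 1.07% in KI and 0.566% in WT. At 10% to under 30% in WT the difference was -4.52 points in the region and -1.67 points over the genome. At 30% to under 50% it was -8.53 points in the region and -3.87 points over the genome. In the region it was -9.59 points for those at 50% to under 70% in WT (107 cytosines) and -8.47 at 70% to under 80%. It was -5.99 at 80% to under 90%, -5.12 at 90% to under 100% and -9.95 at 100%. Over the genome, also outside CCGG, the differences from 50% in WT upwards were -5.72, -6.27, -5.68, -4.97 and -11.2 points. At the edges of the coverage rule, cytosines whose lower coverage was exactly 5 reads differed by -2.35 points (138 cytosines) and those left out with 4 reads by -3.19 points (139 cytosines). The 100 kb just inside 88 Mb differed by -1.44 points and the 100 kb just outside by 0.460 points. At 91 Mb these values were -8.46 points inside and -8.36 points outside.

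Of the 17 genes that touch the region, pseudogenes left out, 12 had a measured promoter. A promoter was called only where both Fisher's exact test on its summed reads and the Cochran-Mantel-Haenszel test with the cytosine as stratum passed (both two-sided, adjusted over 16516 promoters). In the genome 7.53% of promoters were called lower in KI and 1.33% higher. Lower calls in the region were Lhcgr, Fshr, Gtf2a1l and Gm17287, and since the locus was chosen on this contrast, nothing is read from their number or from the calls of the receptors. Gtf2a1l, which encodes a germ cell homologue of the general transcription factor subunit TFIIA alpha and beta, had 71.2% in KI and 79.5% in WT. Gm17287, a gene model, had 44.7% in KI and 54.1% in WT. The others were nearly unmethylated in both libraries, among them the mismatch repair gene Msh6, the adhesion molecule gene Epcam, the potassium channel gene Kcnk12, the ubiquitin ligase subunit gene Fbxo11, the forkhead gene Foxn2, Klraq1 and Ston1, with KI levels of 0% to 1.99% and WT levels of 0.0131% to 2.27%.

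Among all 16516 promoters, Lhcgr ranked 6 and Fshr 282 by difference downwards. The locus was chosen for the KI minus WT difference of the Lhcgr promoter, so nothing is read from these ranks or from the counts below. Promoters were not matched for depth, and Lhcgr had a mean of 14 KI reads and 12 WT reads per cytosine. Of 693 promoters at 45% to under 60% in WT, 2 including Lhcgr differed downwards by as much as Lhcgr, and the median difference was -3.73 points. Of 1037 promoters at 70% to under 85% in WT, 63 including Fshr differed by as much as Fshr, with a median of -3.09 points.

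The promoters of the wider reproductive axis were mostly unmethylated in liver, as promoters of the genome were. Of 69 genes on 9 lists, 48 had a measured promoter and 5 of these were called lower and 0 higher (10.4% lower, against 7.53% in the genome). Without Lhcgr and Fshr, 3 of 46 were called lower (6.52%), near the share of the genome. The median level of the 48 promoters was 2.39% in KI and 2.59% in WT, against 0.895% in KI and 0.981% in WT over all promoters, and 36 of the 48 were under 10% in WT, against 12290 of 16516.

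Among glycoprotein hormone receptors and their relatives, 2 of 7 were called lower, and these are Lhcgr and Fshr. The locus was chosen for the Lhcgr promoter with these values known, so nothing is read from their calls. Lgr5 and Lgr6, leucine-rich repeat receptors for R-spondins, had 0.259% and 2.59% in KI and 0.573% and 2.69% in WT. Rxfp2, the receptor for the testicular hormone INSL3, had 43.2% in KI and 54.8% in WT at 6 cytosines. It was called lower by the Cochran-Mantel-Haenszel test but not by Fisher's exact test, and so was not called.

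Among the hormone subunits, 1 of 3 was called lower. Lhb, the beta subunit of luteinizing hormone, had 17.1% in KI and 26.1% in WT, a difference of -8.97 points, and was not called without CCGG or within 500 bp of the 5′ end. Gpha2 and Gphb5, the subunits of thyrostimulin, had 78.6% and 55.5% in KI and 77.6% and 57.1% in WT. Of the hypothalamic genes 1 of 3 was called lower, namely Tacr3, the neurokinin B receptor, at 1.71% in KI and 4.38% in WT, which was not called without CCGG. Gnrh1, which encodes gonadotropin-releasing hormone, had 58.7% in KI and 61.3% in WT, and Kiss1r, the kisspeptin receptor, had 0% in both.

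Of the steroid synthesis genes 1 of 4 was called lower, namely Scarb1, the HDL receptor that supplies cholesterol to steroidogenic cells and hepatocytes, at 5.46% in KI and 8.34% in WT. Srd5a1, a steroid 5-alpha-reductase, had 0.0886% in KI and 0.250% in WT, and Tspo, a mitochondrial outer membrane protein, had 25.4% in KI and 20.4% in WT and was not called. No promoter was called among 7 of the inhibin, activin and AMH list (Inhbb, Acvr2a and Acvr2b all under 1% in both libraries), 3 steroid hormone receptors (with Esr2 and Pgr at 2.95% and 1.56% in KI and 2.26% and 2.38% in WT) and 2 other pituitary hormone receptors. Prlr, the prolactin receptor, had 3.61% in KI and 0% in WT at 10 cytosines, and Ghr, the growth hormone receptor, had 3.38% in KI and 3.26% in WT. None was called among 10 genes of receptor signalling, where Prkaca, Crem and Arrb1 were under 1% in both libraries. Gnas, which encodes the Gs alpha subunit, had 59.2% in KI and 52.1% in WT at the outermost 5′ end of its gene. Other start sites within Gnas were not examined, so this value need not be that of the Gs alpha transcript. No promoter was called among 9 gonadal transcription factors, where Wt1, Foxl2 and Nr4a1 had 0.887% to 2.33% in KI and 1.14% to 2.49% in WT.

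**Figure D5:**
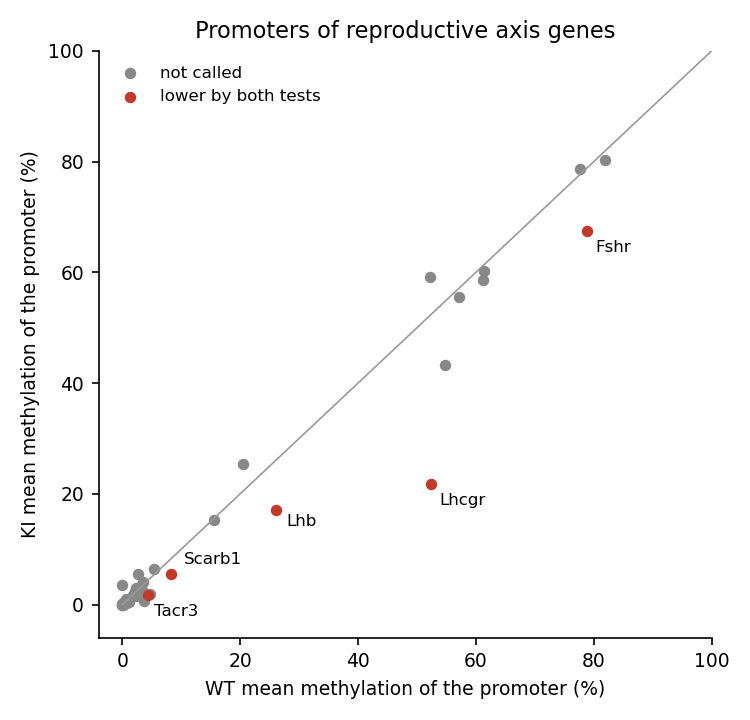
Mean methylation (%) of the 48 measured promoters of the reproductive axis lists in KI (vertical) against WT (horizontal), with the 5 promoters called lower by both tests in red and the line of equality in grey. Lhcgr, at 21.7% in KI and 52.5% in WT, lies farthest below the line, and most promoters lie near the origin.

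The promoters nearest to Lhcgr in their pair of KI and WT levels (distance in points over the 2 libraries, among 14907 promoters with at least 7 cytosines and a mean of 9 reads per cytosine) were Nr1i2, D130017N08Rik, AC122189.1, 7SK and Mir149. Nr1i2, which encodes the pregnane X receptor, had 23.8% in KI and 49.9% in WT, 3.33 points from Lhcgr, and Mir149 was the farthest of them at 10.8 points. Around Fshr the promoters were denser. Sfi1, Gm10397, SNORA17, Gm10119 and U6 lay within 0.681 to 1.40 points, and Sfi1, a centrosomal protein gene, had 67.7% in KI and 78.2% in WT.

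Uhrf1 itself lies on chromosome 17, 32.7 Mb from Lhcgr, and the KI allele came from ES cells of another strain background, so sequence linked to the allele may differ between the libraries. Of 1855 cytosines of the region with at least 20 KI reads, 3 (0.162%) had no WT read. Of 1862 with at least 20 WT reads, 0 had no KI read. That count allows a share of up to 0.161% if cytosines are taken as independent. Cytosines of a fragment are not, so the true bound is wider. Around Uhrf1, between 40 and 60 Mb, these shares were 0.910% for KI only and 1.32% for WT only, and on the other autosomes 0.0793% for KI only and 0.0279% for WT only. The part of inherited sequence in the methylation of Lhcgr and Fshr was not tested.

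In bulk liver DNA a change in the mix of cells and a change within cells cannot be told apart. Among promoters of hepatocyte markers 4 of 5 measured were called lower, where 7.53% of all promoters were. Of promoters at 45% to under 60% in WT 21.2% were, a band that holds only Hnf4a of these markers. Neither share is matched to the markers for both WT level and depth. Apob, an apolipoprotein gene, had 31.1% in KI and 43.7% in WT, Fgb (fibrinogen) 26.0% in KI and 39.6% in WT, F2 (prothrombin) 29.1% in KI and 33.9% in WT, and Hnf4a 45.2% in KI and 56.7% in WT. Of 2 measured blood and Kupffer cell markers, Cd3e was called, at 48.5% in KI and 65.3% in WT. Of 5 measured gonadal markers only the germ cell gene Ddx4 was called, at 57.8% in KI and 62.4% in WT, while Sycp3 had 75.1% in KI and 73.1% in WT. Alb, Apoa1, Ttr, Serpina1a and Cps1 had no measured promoter, so the tissue label could not be checked at them. The part of cell mix in the values of Lhcgr and Fshr was not tested.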

How the data were processed

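RRBS of liver DNA gave 1 library per genotype, each a pool of 3 mice. Reads were aligned to mm9 by the authors using Bismark (0.12.20 according to the submitters' processing notes), and trimming and duplicate handling are not given in the sources used here. The deposited coverage is a count of reads per CpG cytosine, and methylation was deposited as the percent of them that were methylated. Methylated reads were recovered as coverage times percent and were whole within 0.02 reads at 100% of positions. Strand was read from the mm9 sequence, since the deposited column holds F throughout. Cytosines with at least 5 reads in both libraries (the study's minimum) were kept, each with equal weight, and a change is the KI level less the WT level in points. Promoters (1 kb on either side of a gene's 5′ end, at least 5 shared cytosines), exons and sequences came from mm9 and GENCODE vM1, with pseudogenes left out. Calls used Fisher's exact test per cytosine, and for promoters also the Cochran-Mantel-Haenszel test. Cytosines of 1 strand with gaps of up to 200 bp formed a cluster in the counting intervals. PCR copies and reads over several CpGs make p-values too small. Scripts were tested on simulated data.

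The members and gene lists were chosen with earlier results of these data known. Named genes were Lhcgr and Fshr, genes of the region with a measured promoter, the 5 nearest promoters to each receptor, and per list the called members and the 3 with the most reads. Some genes this rule names are not reported here. Other genes (Rxfp2, Gnas, unmeasured markers) and the printed fragments, apart from those of the promoters, were chosen after their values were seen. Alternatives were coverage minimums of 10 and 20 reads, summed strands, leaving out CCGG, weighting by reads, promoters of 500 bp and 2 kb, a chi-square test, no minimum difference, and each promoter test alone. Software was matplotlib 3.10.9, scipy 1.17.1, pandas 2.3.3, numba 0.67.0 and numpy 2.4.6 under Python 3.11.15.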

Additional observations from a re-analysis of the deposited data

How the results depend on the processing

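The 5 parts of the locus and the region kept their direction under every alternative that gave a value. The Lhcgr promoter ranged between -37.5 and -22.0 points, the Fshr promoter between -13.4 and -11.1, the Lhcgr body between -10.4 and -6.88, the Fshr body between -8.92 and -5.31 and the region between -4.72 and -3.70. The space between the genes, -7.89 points as reported, was -5.12 at a minimum of 10 reads, -4.93 at 20 reads and -19.1 without CCGG (14 cytosines), and the last alone lay outside its counting error. A minimum of 20 reads left no cytosine of the Lhcgr promoter, so its value rests on shallow coverage. With no minimum difference 95 cytosines of the region were called lower in place of 45, and the other alternatives gave 31 to 48. The reproductive axis had 3 lower promoters of 43 measured without CCGG (Lhcgr, Fshr and Scarb1, with Lhb and Tacr3 lost) in place of 5 of 48. It had 4 to 6 of 42 to 48 measured otherwise. Promoters left with under 5 cytosines drop out, so a lost call need not mean a promoter that was tested and not called. The cause of these shifts was not tested. No paired analysis was possible because each genotype is 1 library.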

Other observations

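Further into Lhcgr exon 1 and the start of intron 1, 144 to 292 bases downstream of the start site, 8 template-strand cytosines had 6 WT reads each and no KI read. At 7 of them all 6 WT reads were methylated, and at that 218 bases downstream 0 of 6 were. The coding-strand cytosines of these CpGs had 1 of 2 WT reads methylated, except 1 of 1 at the farthest. The 6 template reads may be copies of fewer molecules, since PCR copies were not marked. Just upstream of that fragment, 15 and 12 bases downstream of the start site and at the start site itself, 2 of 4 WT reads were methylated, with 1 KI read at each. The sequence within 1 kb of the Lhcgr start site holds 45 CpGs, of which 7 could be compared, and that of Fshr 34, of which 8 could be.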
